A study of Mus musculus with 6 samples.

Results

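The aryl hydrocarbon receptor (AHR) pathway was followed in cultured adult mouse neural stem cells through 6 genes, taken by symbol from the 24421 genes of the count table. They were the receptor gene Ahr, its partner gene Arnt, the repressor gene Ahrr, the feedback enzyme gene Tiparp and the cytochrome P450 genes Cyp1a1 and Cyp1b1, and all 6 were found. The cells were primary wild-type neural stem cells from the subventricular zone, the stem cell niche lining the lateral ventricles, of C57BL/6 mice aged 60 postnatal days. One group of 3 libraries came from cells given 20 µM PluriSIn#2, a compound that the labels call an inhibitor of topoisomerase IIA, for 3 days. The other group of 3 libraries came from cells given DMSO, the solvent, for the same time. Both groups grew in medium with FGF2 and EGF at 20 ng/ml each, changed after 24 h. The titles put all 3 treated libraries under PluriSIn#2, but the treatment field of treated replicates 2 and 3 gives another number after the compound's stem, so values from treated replicate 1 alone are given where they end the call of a pathway gene. No label states that replicates were separate cultures, so p-values measure the spread between these libraries, which may be technical.

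AHR is a transcription factor of the bHLH-PAS family that waits in the cytosol with the chaperone HSP90 until it binds a small molecule, such as dioxin or a tryptophan metabolite. It then enters the nucleus, pairs with ARNT and binds the xenobiotic response element, whose core is GCGTG. Cyp1a1, Cyp1b1, Tiparp and Ahrr are its textbook targets. The CYP1 enzymes oxidise its ligands, TIPARP adds single ADP-ribose units to the receptor and limits it, and the AHRR protein competes with it for ARNT. In the mouse brain the receptor has been studied in neural progenitors of the adult hippocampus.

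Because the response element is what the 4 target genes share, the 250 bases before the start of each were read from the RefSeq promoter table (build GRCm38.p6), in which Arnt was also present and Ahr was not matched. Capitals mark each GCGTG on the printed strand or its reverse complement CACGC. The windows are chr13:74292332-74292581 on the minus strand for Ahrr, chr3:65528197-65528446 on the plus strand for Tiparp, chr9:57697363-57697612 on the plus strand for Cyp1a1 and chr17:79715062-79715311 on the minus strand for Cyp1b1. All are printed in the direction of the gene. RefSeq and GENCODE, which gives the gene positions below, place the start alike for Ahrr and Cyp1b1, but the RefSeq start used here lies 37 bases inside the GENCODE gene for Tiparp and 9685 bases inside it for Cyp1a1.
Ahrr: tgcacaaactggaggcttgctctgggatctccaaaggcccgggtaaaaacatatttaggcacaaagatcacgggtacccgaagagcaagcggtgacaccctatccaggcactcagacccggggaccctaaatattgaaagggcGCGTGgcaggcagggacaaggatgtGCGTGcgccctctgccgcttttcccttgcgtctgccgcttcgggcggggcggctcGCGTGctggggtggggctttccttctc
Tiparp: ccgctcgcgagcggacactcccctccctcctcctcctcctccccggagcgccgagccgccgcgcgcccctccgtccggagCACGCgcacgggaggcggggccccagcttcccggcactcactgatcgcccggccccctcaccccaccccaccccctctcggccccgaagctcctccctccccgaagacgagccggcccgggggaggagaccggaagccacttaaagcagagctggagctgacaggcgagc
Cyp1a1: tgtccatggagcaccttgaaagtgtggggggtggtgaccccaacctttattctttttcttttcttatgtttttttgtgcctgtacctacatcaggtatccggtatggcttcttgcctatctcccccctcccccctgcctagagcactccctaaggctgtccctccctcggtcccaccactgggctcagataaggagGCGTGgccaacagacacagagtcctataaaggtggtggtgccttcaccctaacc
Cyp1b1: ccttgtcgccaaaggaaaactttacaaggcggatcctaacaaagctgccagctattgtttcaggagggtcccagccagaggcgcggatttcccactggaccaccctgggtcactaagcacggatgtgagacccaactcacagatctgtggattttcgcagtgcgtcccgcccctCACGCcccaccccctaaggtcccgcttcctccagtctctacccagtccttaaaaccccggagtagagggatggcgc

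The Ahrr window held 3 cores, 107, 82 and 27 bases before the start, counted from the first base of the motif. The last of these lies in the longer form TNGCGTG, which the windows of the other 4 genes did not hold. Tiparp, Cyp1a1 and Cyp1b1 held 1 core each, at 170, 54 and 76 bases before the start, and Arnt held 1 at 29. Among 32851 windows of the same length in the table, searched on both strands, 28.2% held at least 1 core, 2.77% held 3 or more and 4.10% held the longer form, which overlaps the core. The windows were 60.4% G and C for Ahrr, 75.2% for Tiparp, 53.6% for Cyp1a1 and 58.0% for Cyp1b1, against a median of 52.4%. A match describes these letters only, and cores outside the windows were not searched.

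PluriSIn#2 changed most of the transcriptome. By the quasi-likelihood test of edgeR, whose Benjamini-Hochberg adjusted p is the one given throughout, 82.6% of the 14417 genes tested were called at 0.05, 41.7% of them higher and 40.9% lower, each as a share of genes tested. At least 2-fold changes among the calls made up 16.3% higher and 11.7% lower. The 3 treated and 3 DMSO values did not overlap for 82.7%. Libraries held from 16670962 to 17827158 counts in PluriSIn#2 and from 18186070 to 19241869 counts in DMSO. As a check of the treatment, Top2a, the targeted enzyme's gene and a marker of dividing cells, averaged 6.00 CPM in PluriSIn#2 and 878 CPM in DMSO, where CPM is the count scaled to library size. Of 8 stem cell and astroglial markers, all present in both groups, 3 rose and 5 fell (median of the log2 fold changes -0.45). Gfap (299 and 42.0 CPM in PluriSIn#2 and DMSO), Slc1a3 (2705 and 1936 CPM) and Vim (3059 and 2667 CPM) rose. Nes (437 and 1186 CPM in PluriSIn#2 and DMSO), Fabp7 (715 and 1676 CPM), Egfr (210.3 and 520.2 CPM), Sox2 (32.7 and 49.0 CPM) and Prom1 (18.9 and 23.6 CPM) fell. In these bulk libraries, fewer cells of a type and less RNA per cell cannot be told apart.

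Of the 6 genes, Ahrr and Arnt were lower and Cyp1a1 and Cyp1b1 higher in PluriSIn#2, while Ahr and Tiparp were higher by small margins that rested on single libraries. The P450 genes stood 12.8-fold and 6.17-fold above DMSO, and the repressor gene 7.08-fold below. All 6 passed the filter on low counts, Cyp1a1 through its treated libraries alone and Ahrr through its DMSO libraries alone. Since most genes tested were called, the count of 4 higher and 2 lower is not read further.

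**Figure D1:**
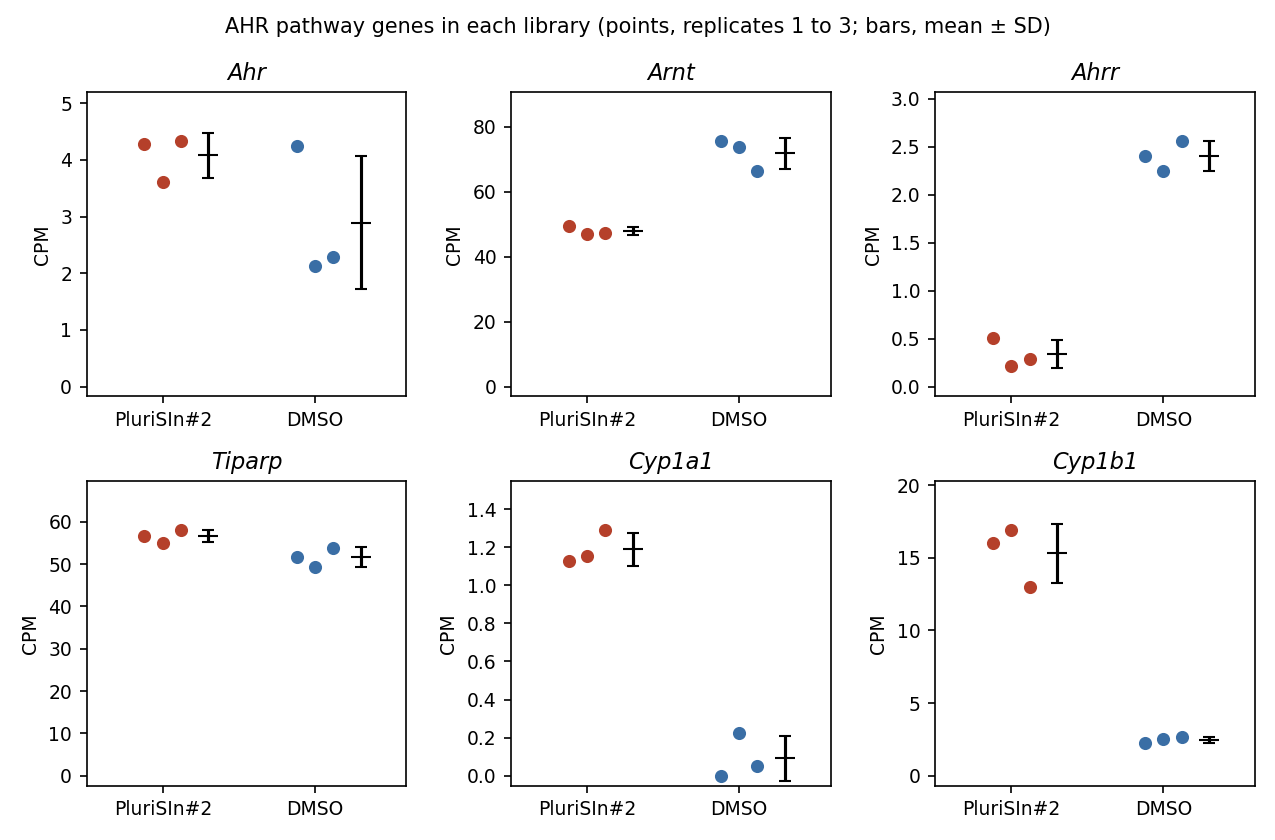
CPM of each AHR pathway gene (vertical axis from 0, a scale for each gene) in the 3 PluriSIn#2 and 3 DMSO libraries, with the mean and SD beside the points. The groups are apart for Arnt, Ahrr, Tiparp, Cyp1a1 and Cyp1b1, and for Ahr DMSO replicate 1 (4.25 CPM) lies among the treated values.

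Ahr, the receptor gene, is a minus-strand gene of chromosome 12 (35497974 to 35535038 in GRCm38, as GENCODE M21 gives it, which also holds for the positions of the other genes). It had 76, 66 and 74 counts in PluriSIn#2 replicates 1, 2 and 3, against 76, 38 and 43 counts in DMSO replicates 1, 2 and 3. These equal 4.29, 3.62 and 4.33 CPM in PluriSIn#2, against 4.25, 2.14 and 2.29 CPM in DMSO. The treated libraries were alike, and the groups overlapped because DMSO replicate 1 was as high as they were. Its 95% Poisson interval for counting error, 59.9 to 95.1 counts, did not meet those of DMSO replicate 2 (26.9 to 52.2) or DMSO replicate 3 (31.1 to 57.9). The mean was 4.08 ± 0.400 CPM in PluriSIn#2 and 2.90 ± 1.18 CPM in DMSO (SD, n = 3 each), a log2 fold change of 0.50 (SE 0.19, edgeR adjusted p = 0.0141). The call was lost without PluriSIn#2 replicate 1 (log2 fold change 0.46, edgeR adjusted p = 0.0516), without DMSO replicate 2 (0.32, adjusted p = 0.139) and without DMSO replicate 3 (0.34, adjusted p = 0.127). Without DMSO replicate 1 the change was 0.87 (adjusted p = 0.000157). DESeq2 gave 0.49 with an adjusted p of 0.108, and the authors' deposited table gives 0.49 with an adjusted p of 0.102.

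Arnt, whose protein pairs with AHR and with the hypoxia-inducible factors, is a plus-strand gene of chromosome 3 (95434388 to 95497240). It stood at 49.5, 46.9 and 47.4 CPM in PluriSIn#2, against 75.7, 73.7 and 66.5 CPM in DMSO, from 809 to 877 and from 1248 to 1351 counts. Every treated library was below every DMSO library. The mean was 47.9 ± 1.35 CPM in PluriSIn#2 and 72.0 ± 4.79 CPM in DMSO (SD, n = 3 each), 1.502-fold lower, with a log2 fold change of -0.59 (SE 0.05, edgeR adjusted p = 1.24e-19). Of all genes tested, 22.1% had a lower fold change than Arnt.

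Ahrr, the repressor gene, is a minus-strand gene of chromosome 13 (74211118 to 74292331). It had 9, 4 and 5 counts in PluriSIn#2, against 43, 40 and 48 counts in DMSO, or 0.507, 0.219 and 0.293 CPM in PluriSIn#2, against 2.41, 2.25 and 2.56 CPM in DMSO. The groups were far apart, although the treated values rest on 18 counts in all. The log2 fold change was -2.80 (SE 0.34, edgeR adjusted p = 5.8e-12), and the ratio of the 2 groups' summed counts was 0.141, with a 95% interval from 0.081 to 0.231 for counting error. Only 2.34% of the genes tested had a lower fold change. Ahrr passed the filter through its DMSO libraries alone, the group where it is higher, so the filter favoured this direction. In the same libraries the summed level of 6 markers of dividing cells (Mki67, Top2a, Ccnb1, Cdk1, Aurkb and Bub1) was lower in PluriSIn#2. It lay between 14.1 and 16.2 CPM in PluriSIn#2 and between 2470 and 2524 CPM in DMSO. All 6 were lower, with a median log2 fold change of -7.29. Aurkb and Bub1 reached 10 counts throughout the DMSO libraries alone, where they are higher, so the filter favoured this direction. Of all genes tested, 40.9% were lower, and the count of 6 is not read further. The part of dividing cells in the Ahrr values was not tested.

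Tiparp, which encodes the mono-ADP-ribosyltransferase also called PARP7, is a plus-strand gene of chromosome 3 (65528410 to 65555518). It had 56.6, 55.1 and 58.0 CPM in PluriSIn#2, against 51.7, 49.2 and 53.9 CPM in DMSO. Each treated value exceeded each DMSO value, by a narrow gap between PluriSIn#2 replicate 2 and DMSO replicate 3. The mean was 56.5 ± 1.44 CPM in PluriSIn#2 and 51.6 ± 2.32 CPM in DMSO (SD, n = 3 each), a log2 fold change of 0.13 (SE 0.05, edgeR adjusted p = 0.0115). The call was lost without PluriSIn#2 replicate 3 (0.11, adjusted p = 0.0642), without DMSO replicate 2 (0.09, adjusted p = 0.114) and with treated replicate 1 alone (0.13, adjusted p = 0.0976). Scaling by library totals gave 0.20 (adjusted p = 0.000144), DESeq2 gave 0.125 (adjusted p = 0.0726), and the adjusted p of the authors' deposited table is 0.0685. The pseudogene 4931440P22Rik on the opposite strand overlaps 5.12% of the Tiparp exons, and no source used here says whether reads were counted by strand.

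**Figure D2:**
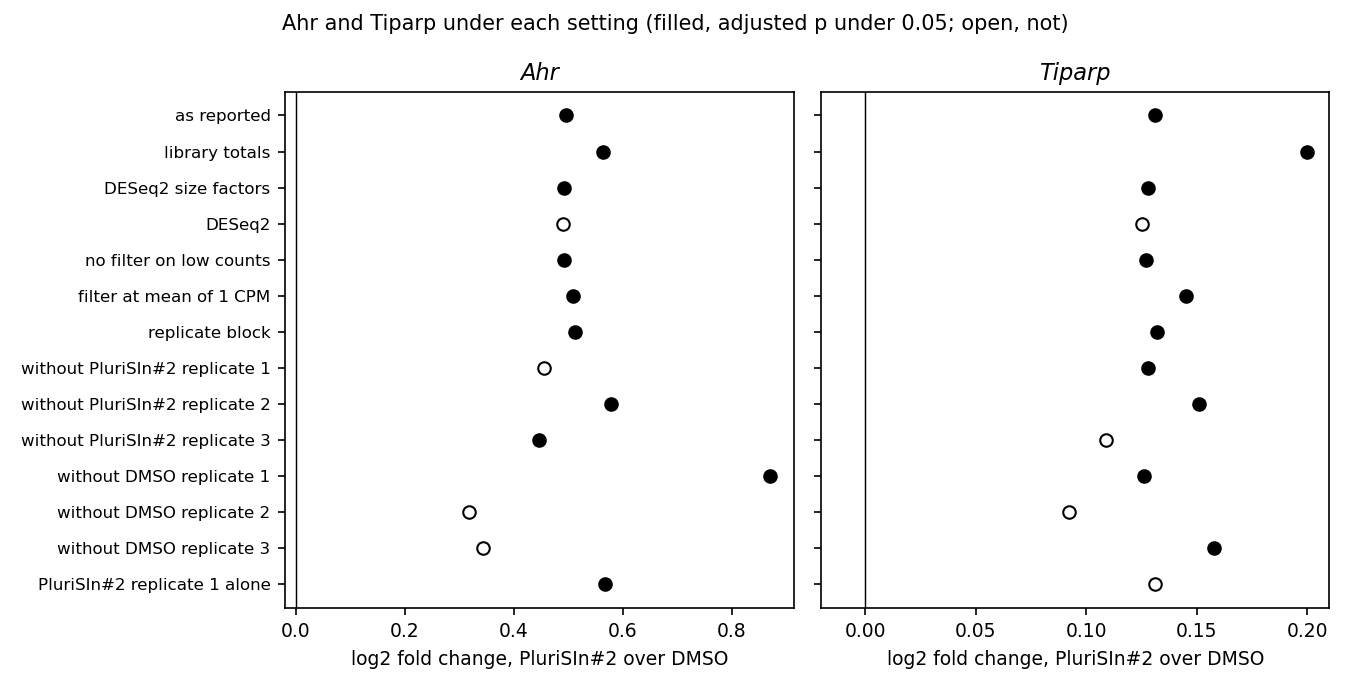
Log2 fold change of Ahr (left) and Tiparp (right), PluriSIn#2 over DMSO, as reported and under 13 other settings, with a filled point where the adjusted p was under 0.05. Ahr ran from 0.32 to 0.87 and Tiparp from 0.09 to 0.20, each called under 9 of the 13.

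Cyp1a1, the enzyme gene whose induction is the usual sign of AHR activity in liver, is a plus-strand gene of chromosome 9 (57687928 to 57703824). It had 20, 21 and 22 counts in PluriSIn#2, against 0, 4 and 1 counts in DMSO, or 1.13, 1.15 and 1.29 CPM in PluriSIn#2, against 0, 0.225 and 0.0533 CPM in DMSO. The treated libraries lay close together and all DMSO libraries were far below them. For the 0 in DMSO replicate 1 the floor was set at 3 counts, or 0.168 CPM. The 95% Poisson interval of that 0 ran up to 3.69 counts. The log2 fold change was 3.59 (SE 0.55, edgeR adjusted p = 9.31e-09), and the ratio of summed counts, 63 in PluriSIn#2 over 5 in DMSO, was 12.9 with a 95% interval from 5.25 to 41.2 for counting error. The size moved with DMSO replicate 2, which holds 4 of those 5 counts, and without it the log2 fold change was 5.12 (adjusted p = 6.53e-09). Cyp1a1 passed the filter through its treated libraries alone, the group where it is higher, so the filter favoured this direction.

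Cyp1b1, the CYP1 enzyme gene expressed mostly outside the liver, is a minus-strand gene of chromosome 17 (79701537 to 79715061). It had 284, 308 and 222 counts in PluriSIn#2, against 40, 45 and 50 counts in DMSO, or 16.02, 16.9 and 13.0 CPM in PluriSIn#2, against 2.24, 2.53 and 2.67 CPM in DMSO. PluriSIn#2 replicate 3 was the lowest of the treated libraries and still far above every DMSO library. The mean was 15.3 ± 2.04 CPM in PluriSIn#2 and 2.48 ± 0.218 CPM in DMSO (SD, n = 3 each), a log2 fold change of 2.62 (SE 0.14, edgeR adjusted p = 6.96e-32), above that of 96.7% of the genes tested. It stayed between 2.55 and 2.72 under 13 other settings. Cyp1a2, the other member of the family, had no read in any of the 6 libraries.

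Cyp1b1 is known in pericytes and fibroblasts, and the summed markers of such cells and of other cell types were higher in the same libraries. Of 12 markers of pericytes, smooth muscle and fibroblasts, 9 rose, 2 fell and 1 was not called. For this and the other marker counts below, 41.7% of all genes tested rose and 40.9% fell. Their summed level was between 605 and 616 CPM in PluriSIn#2 and between 340 and 359 CPM in DMSO. Fn1 held the largest part of it in PluriSIn#2 (281 CPM, against 108 CPM in DMSO). The collagen gene Col1a2 averaged 45.2 CPM in PluriSIn#2 and 0.751 CPM in DMSO, and the pericyte receptor gene Pdgfrb 19.8 CPM in PluriSIn#2 and 1.80 CPM in DMSO. The 2 that fell were Pdgfra, a receptor gene of fibroblasts and of oligodendrocyte precursors (4.91 and 56.9 CPM in PluriSIn#2 and DMSO), and Cspg4, a gene of pericytes and of oligodendrocyte precursors (86.1 and 149 CPM). The smooth muscle actin gene Acta2 was not called (13.5 and 14.5 CPM in PluriSIn#2 and DMSO). The markers named in this paragraph were named after their values were seen. Endothelial markers summed to between 30.7 and 33.6 CPM in PluriSIn#2 and between 6.505 and 7.73 CPM in DMSO, and 6 of the 7 tested, of 8 listed, rose. Macrophage and microglia markers summed to between 157 and 161 CPM in PluriSIn#2 and between 2.59 and 3.25 CPM in DMSO, where Trem2 was at 0. Choroid plexus and ependymal markers summed to between 644 and 663.5 CPM in PluriSIn#2 and between 38.8 and 40.4 CPM in DMSO. Ttr (500.5 and 1.89 CPM in PluriSIn#2 and DMSO) and Foxj1 (144 and 34.1 CPM) made up most of these sums. All 10 tested macrophage markers and all 6 tested choroid plexus and ependymal markers rose, but 9 and 3 of them reached 10 counts throughout the treated libraries and not throughout the DMSO ones. The same holds for 2 of the endothelial and 4 of the pericyte and fibroblast markers. For markers that entered the test through the treated libraries alone, the filter favoured a rise, so these counts are not read further. Over all genes tested the median log2 fold change was 0.01. The part of these cell types in the Cyp1a1 and Cyp1b1 values was not tested.

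Levels were compared between genes in FPKM, the authors' values per gene length and sequencing depth. In PluriSIn#2 the order was Tiparp (14.6 ± 0.481 FPKM), Arnt (11.0 ± 0.325), Cyp1b1 (3.00 ± 0.399), Ahr (0.746 ± 0.0737), Cyp1a1 (0.442 ± 0.0321) and Ahrr (0.0721 ± 0.0319, SD, n = 3 each), and no neighbours overlapped. In DMSO the order was Arnt (15.8 ± 1.07 FPKM), Tiparp (13.1 ± 0.515), Ahr (0.504 ± 0.206), Ahrr (0.487 ± 0.0306), Cyp1b1 (0.463 ± 0.0403) and Cyp1a1 (0.0329 ± 0.0418), and Ahr, Ahrr and Cyp1b1 overlapped in their values. The FPKM ratio of Ahrr to Ahr was thus 0.137, 0.0704 and 0.0784 in PluriSIn#2, against 0.657, 1.22 and 1.30 in DMSO. The gene length implied by counts and FPKM was between 5602 and 5606 bases for Ahr over the 6 libraries, but between 3806 and 3991 bases for Tiparp.

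**Figure D3:**
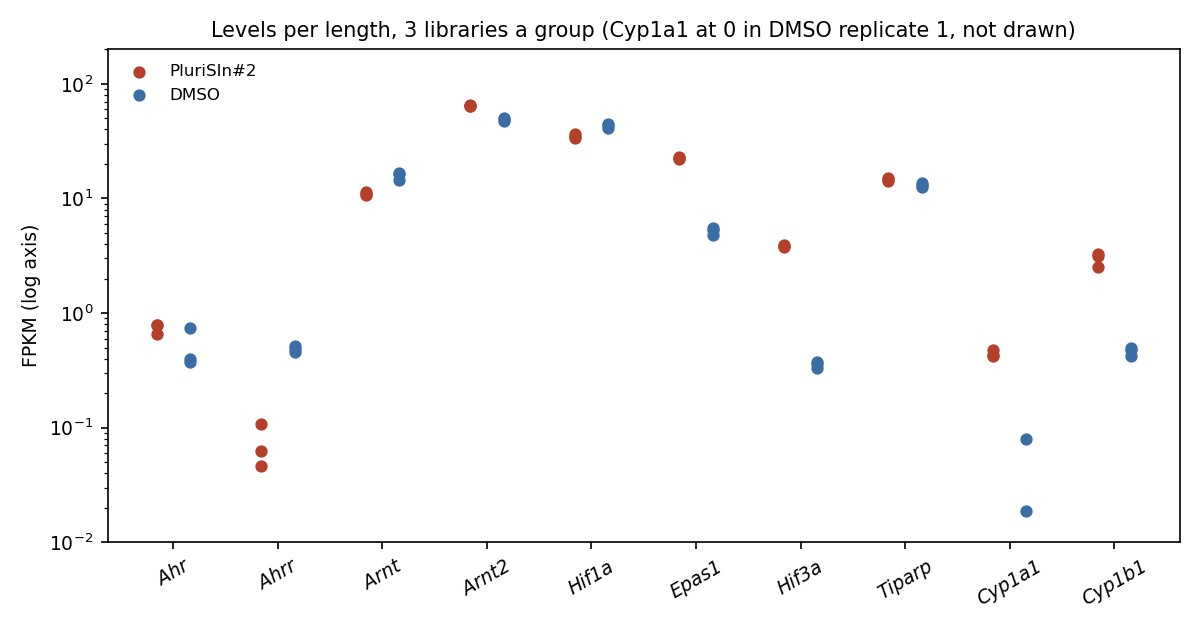
FPKM (log axis) of the 6 AHR pathway genes and of Arnt2, Hif1a, Epas1 and Hif3a, 1 point per library, PluriSIn#2 to the left of DMSO. Arnt2 lies above Arnt in every library, and Ahr is below 1 FPKM in all 6.

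The AHR gene battery includes other detoxification genes. Of 12 other classic targets listed, 7 were tested, of which 6 rose and 1, the amino acid transporter gene Slc7a5, fell (log2 fold change -0.33, edgeR adjusted p = 8.12e-20). Aldh3a1 and Ereg entered the test through the treated libraries alone, and 4 of the other 5 rose. Among all genes tested, 41.7% rose and 40.9% fell. Aldh3a1, an aldehyde dehydrogenase gene, had 27, 31 and 22 counts in PluriSIn#2, against 2, 2 and 1 counts in DMSO (log2 fold change 3.94, SE 0.51, edgeR adjusted p = 3.53e-11). Nqo1, a quinone reductase gene, had 19.7, 21.4 and 19.9 CPM in PluriSIn#2, against 10.5, 11.9 and 10.1 CPM in DMSO (log2 fold change 0.91, SE 0.09, edgeR adjusted p = 4.82e-16). Ugt1a6a, a glucuronosyltransferase gene, had 5.81, 6.20 and 5.04 CPM in PluriSIn#2, against 0.840, 0.619 and 0.906 CPM in DMSO (log2 fold change 2.84, SE 0.22, edgeR adjusted p = 1.08e-20). Its value is uncertain, because at least 30.4% of its exon bases are shared with each of several other Ugt1a genes. The growth factor gene Ereg had 54, 56 and 54 counts in PluriSIn#2, against 11, 5 and 6 counts in DMSO (log2 fold change 2.91, edgeR adjusted p = 1.7e-14). Rises were also called for Htatip2 (0.83) and for Nfe2l2, which encodes the antioxidant factor NRF2 (0.50). The listed genes not tested were Cyp1a2, Ugt1a6b, Gsta1, Cyp2s1 and Scin, with at most 13 counts in the summed PluriSIn#2 libraries and at most 20 in the summed DMSO libraries.

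**Figure D4:**
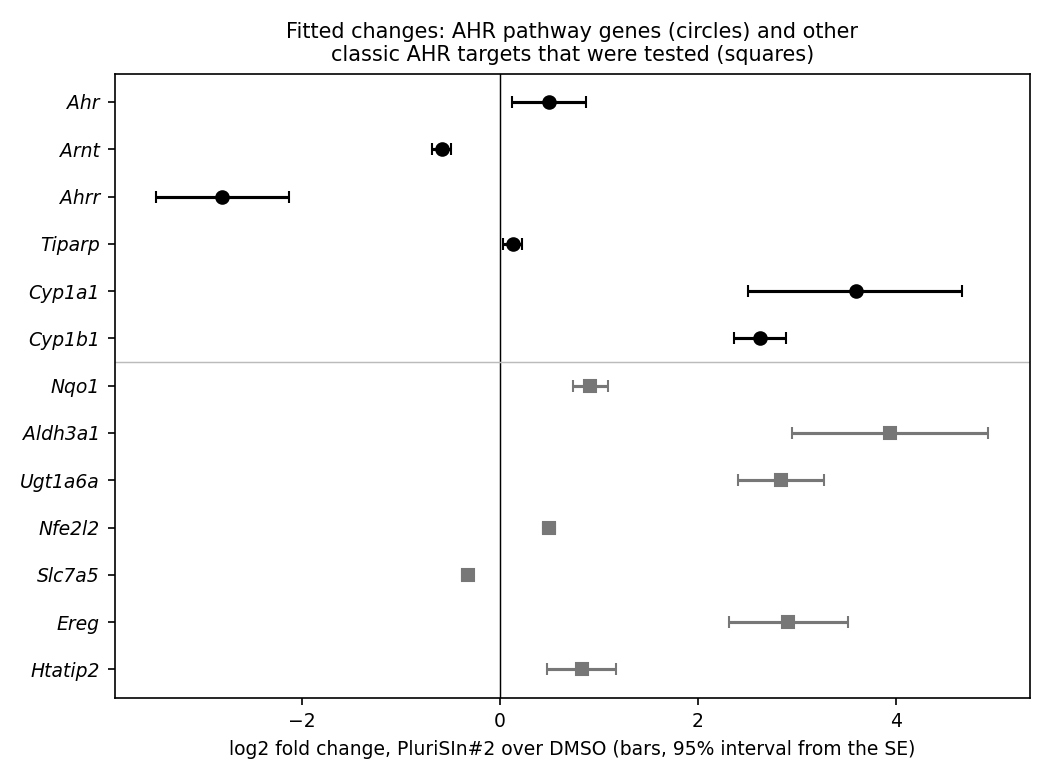
Log2 fold change, PluriSIn#2 over DMSO, of the 6 AHR pathway genes (circles) and the 7 other classic targets that were tested (squares), with 95% intervals from the standard error. Cyp1a1, Cyp1b1, Aldh3a1, Ugt1a6a and Ereg lie above 2, Ahrr below -2 and Tiparp near 0 (0.13).

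Nqo1 and Nfe2l2 belong to the NRF2 battery as well, and that battery was mostly higher. Of its 12 genes 9 rose, 2 fell and 1 was not called, with a median of 0.93. For this battery and the P450 list below, the shares over all genes tested were 41.7% higher and 40.9% lower. Hmox1, the heme oxygenase gene, averaged 616 CPM in PluriSIn#2 and 78.0 CPM in DMSO (log2 fold change 2.98, edgeR adjusted p = 1.5e-87), and Osgin1 13.5 CPM in PluriSIn#2 and 1.94 CPM in DMSO (2.79, adjusted p = 5.87e-32). The glutathione reductase gene Gsr (-0.67) and Keap1, the gene of the NRF2 inhibitor (-0.20), fell. P450 genes outside the CYP1 family and their electron donors moved the same way, with 12 of 14 tested genes up, 1 down and 1 not called. Of these, Cyp2d22 and Cyp27a1 entered the test through the treated libraries alone, and 10 of the other 12 rose. Cyp4v3 (3.07) and the oxysterol hydroxylase gene Cyp7b1 (2.11) had the largest rises of that list, Por, the reductase that feeds electrons to microsomal P450s, rose by 0.29, and Cyp39a1 fell (-2.02).

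The proteins that hold the receptor in the cytosol or clear it were coded by genes that were lower or little changed. Of 8 chaperone and degradation genes none rose, 7 fell and 1 was not called (median -0.27). For comparison, 40.9% of all genes tested were lower, and 82.6% were called in either direction. Hsp90ab1, a cytosolic HSP90 gene, averaged 1511 CPM in PluriSIn#2 and 2618 CPM in DMSO (log2 fold change -0.79, edgeR adjusted p = 4.34e-59). Ptges3, the gene of the co-chaperone p23, averaged 95.02 CPM in PluriSIn#2 and 155 CPM in DMSO (-0.71, adjusted p = 9.58e-33). Scaling by library totals left 5 falls, since Hsp90aa1 (-0.07) and Src (-0.12) were then not called.

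Among relatives that share the bHLH-PAS fold, 10 of 14 tested were higher, 2 lower and 2 not called, with a median of 0.39. For comparison, 41.7% of all genes tested were higher and 40.9% lower. Arnt2, the neural paralogue of Arnt, had 394, 387 and 391 CPM in PluriSIn#2, against 310, 317 and 303 CPM in DMSO (log2 fold change 0.33, SE 0.02, edgeR adjusted p = 4.49e-22), the opposite direction to Arnt. The FPKM ratio of Arnt2 to Arnt was between 5.73 and 5.93 in PluriSIn#2 and between 2.95 and 3.27 in DMSO, with no overlap. Hif3a (3.36) and the clock gene Npas2 (2.63) had the largest rises of the list. Epas1, the HIF-2α gene, averaged 121 CPM in PluriSIn#2 and 29.3 CPM in DMSO (2.05, adjusted p = 5.44e-58). Hif1a (-0.36) and Clock (-0.59) fell. Of 14 hypoxia targets 5 were up (35.7%), 6 down (42.9%) and 3 not called (median log2 fold change -0.10), shares near those over all genes tested (41.7% and 40.9%), or 6 higher and 4 lower when scaled by library totals. The glucose transporter gene Slc2a1 (0.84) and Ndrg1 (0.59) rose, and Ankrd37 (-2.22) and the hexokinase gene Hk2 (-1.94) fell. Ankrd37 had 9, 13 and 12 counts in PluriSIn#2, against 52, 56 and 56 counts in DMSO, and reached 10 counts throughout the DMSO libraries alone.

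Coregulators described for the AHR and ARNT pair were mostly lower, 9 of 12 being down, 2 up and 1 not called (median log2 fold change -0.47). Over all genes tested, 40.9% were lower and 41.7% higher. Smarca4, the ATPase gene of the SWI/SNF remodeller, averaged 212 CPM in PluriSIn#2 and 496 CPM in DMSO (log2 fold change -1.23, edgeR adjusted p = 1.43e-61), and Sp1 fell too (-0.95). The coactivator gene Ncoa1 (0.57) and Rb1 (0.53) rose. Of 18 tested genes of the PARP family and ADP-ribose hydrolases, to which Tiparp is related, 9 rose, 5 fell and 4 were not called (median 0.18). That count is not read further, as 41.7% of all genes tested rose and 40.9% fell. Parp10 (1.70) and Parp3 (1.38) had the largest rises, and Parp1 (-1.75) and Parp2 (-0.80), which respond to DNA breaks, the largest falls of that list. Of 17 symbols of enzymes that make or use tryptophan-derived ligands, 15 were in the table and 6 were tested. Ccbl1 (1.06) and Ccbl2 (1.44), kynurenine aminotransferase genes, rose. Ddc, a decarboxylase gene of serotonin and dopamine synthesis, fell (-2.27) and had 2, 7 and 2 counts in PluriSIn#2, against 20, 14 and 22 counts in DMSO, through which alone it entered the test. Aadat, another aminotransferase gene, had 17, 14 and 12 counts in PluriSIn#2, through which alone it entered the test, against 7, 6 and 6 counts in DMSO. Its call (log2 fold change 1.198, edgeR adjusted p = 0.00987) was lost with DESeq2 (adjusted p = 0.0693), and the authors' deposited table gives an adjusted p of 0.0654. Tdo2, the gene of a kynurenine pathway dioxygenase, had 0.677, 0.548 and 0.644 CPM in PluriSIn#2, against 1.46, 1.35 and 0.640 CPM in DMSO, so the groups overlapped. Its call (-0.87, edgeR adjusted p = 0.0233) was lost with DESeq2 (adjusted p = 0.116) and with treated replicate 1 alone (adjusted p = 0.215), and the authors' deposited table gives an adjusted p of 0.109. Afmid was not called. Ido1, a gene of ligand synthesis, had 4 counts in the summed PluriSIn#2 libraries and 2 in the summed DMSO libraries. Of these genes, all but Ccbl1 and Ccbl2 were named after their values were seen.

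Each gene's profile was set beside those of tested genes averaging at least 5 CPM. Symbols containing Rik, beginning with a digit or LOC, or made of Gm and a number were left out. The measure was the Euclidean distance between log2 CPM values centred on each gene's mean over the 6 libraries. Nearest to Cyp1b1 were Rasa4, a Ras inhibitor gene (distance 0.202), Shisa9 (0.246) and Daam2, a formin gene (0.267). Nearest to Ahrr were Mtfr2, a mitochondrial fission gene (0.382), the protein kinase C gene Prkcq (0.402) and the centrosome gene Cep72 (0.407). Among the 3 nearest to Arnt was the Wnt receptor gene Fzd2 (0.0603). Nearest to Tiparp were the protocadherin gene Pcdhga8 (0.0378), Ppp1r10 (0.0446) and Wasl, a regulator of actin assembly (0.0543). The nearest to Ahr was Gpt (0.414) and to Cyp1a1 Fam198b (0.649), which is farther than for Arnt or Tiparp, whose counts are higher. With 2 groups, such distances mainly reflect the size of the change between them.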

How the data were processed

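RNA of cultured adult mouse neural stem cells was sequenced in 6 libraries, 3 from cells given PluriSIn#2 and 3 given DMSO, grouped by their titles. STAR, HTSeq, DESeq and the build mm10 are named in the submitters' processing notes, with no versions, annotation or strand setting in the sources read here. Raw read counts per gene make up the deposited count table, with no normalization. The deposited FPKM table holds the authors' values per length and depth, their log2 fold changes, and their p-values, raw and adjusted. For 99.4% of genes above 1 FPKM in DMSO with a change over 0.2, the authors' log2 fold change had the sign of PluriSIn#2 over DMSO in their FPKM. Of the table's gene names 25 had turned into dates, none of a gene used here.

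Counts were tested in R 4.3.3 with edgeR 4.0.16 (filterByExpr defaults, TMM, glmQLFTest, a two-sided test with no covariate besides the group), adjusted by Benjamini-Hochberg over 14417 genes. DESeq2 1.42.0, other scalings, other filters and left-out libraries were alternatives. Standard errors were the log2 fold change divided by the root of F. The Poisson intervals, the intervals of summed counts and the floors cover counting error only. Intervals drawn from the standard error also take in the fitted spread between libraries. The code was tested on simulated counts. The genes, lists and tests were chosen with earlier results of these data known. Named were the 6 pathway genes, Top2a and, per list, the 2 largest called rises and falls averaging at least 1 CPM, besides genes whose role in the pathway was needed. A few genes that this rule would name are not reported here.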

Additional observations from a re-analysis of the deposited data

How the results depend on the processing

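Arnt, Ahrr and Cyp1b1 kept direction and call under all 13 alternatives, and Cyp1a1 under the 12 that tested it, since it fell under the filter at a mean of 1 CPM. Where the default filter was used, Ahrr and Cyp1a1 passed it through the group where they are higher, so their kept direction there is not read further. With no filter on low counts, the log2 fold change was -2.81 for Ahrr and 3.59 for Cyp1a1. Leaving out 1 library in turn gave log2 fold changes from 0.317 to 0.870 for Ahr and from 0.0923 to 0.158 for Tiparp, ending the call of Ahr 3 times and of Tiparp 2 times. DESeq2 gave 0.490 for Ahr (adjusted p = 0.108) and 0.125 for Tiparp (adjusted p = 0.0726), and treated replicate 1 alone gave 0.131 for Tiparp (adjusted p = 0.0976). The cause was not tested. The 2 falls among tryptophan and kynurenine enzymes became 1 with DESeq2 and with treated replicate 1 alone, 0 under the filter at 1 CPM, which left 3 genes tested, and from 1 to 2 without single libraries. No other count changed by over 1.5 times, though the 3 rises among those enzymes became 2 with DESeq2. With treated replicate 1 alone, 11 of 95 calls among the pathway and list genes were lost, Tiparp and Tdo2 among them. Genes called higher ran from 5461 to 6533 and lower from 5386 to 6073. With the replicate number as a block (replicate block), Ahr stood at 0.512 (adjusted p = 0.00908), Tiparp at 0.132 (0.0132), and 5984 genes were higher and 5867 lower. Same-numbered libraries of the 2 groups deviated from their group means with r of 0.0134, 0.0293 and -0.0025. Of the 6 libraries, 4 correlated best with their own number. With 3 libraries a group, these values cannot decide whether same-numbered libraries were paired. Depth limits Cyp1a1 and Ahrr, whose lower groups hold 5 and 18 counts in all.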
